A study of Mus musculus with 14 samples.

Results

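The proteins considered here carry a new secretory or membrane protein into the endoplasmic reticulum (ER) and then move it between the ER and the Golgi. They comprise the signal recognition particle and its receptor, the Sec61 channel with its helpers, the TRAP complex, the signal peptidase, the COPII and COPI vesicle coats, and the cargo receptors that travel in those vesicles. The genes were chosen by name from a list of 46, which was drawn up with earlier results of these data known. Their shares beside those of all genes are therefore descriptive only. A gene was measured where the array's platform annotation gave its symbol to a probe set. Of the 46, 44 had such a probe set and Srp54a and Tmed2 were not analysed here. All 44 passed the filter on dim probe sets, among 15873 genes tested in all.

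Signal recognition particle binds a signal peptide as it leaves the ribosome and docks at its receptor on the ER. The chain then passes through the Sec61 channel, its signal peptide is cut off by the signal peptidase, and the folded product leaves in COPII vesicles, while COPI vesicles bring escaped ER proteins and receptors back from the Golgi. In the intestine these routes are used most heavily by cells that secrete, such as mucus-producing goblet cells and antimicrobial Paneth cells.

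The samples were RNA from crypt cells of individual mice on 14 Affymetrix Mouse Gene 2.0 ST arrays. WT mice carried Lgr5-EGFP-IRES-CreERT2, an allele that puts green fluorescent protein and a tamoxifen-activated Cre recombinase under the control of the stem cell gene Lgr5. Atg7KO mice carried the same allele with Atg7(fl/fl), a floxed form of the gene for an enzyme that autophagy needs. Tamoxifen was given for 5 days to both genotypes, with tissue taken 1 month after that treatment, so the controls had the Cre allele and the drug too. Cre was under the control of Lgr5, so the floxed gene could be cut only in cells that expressed Lgr5 under tamoxifen, and their descendants. Cells low for the surface protein CD24 were then sorted by EGFP. The high gate was described as stem cells and the low gate as their transit amplifying progeny. There were 4 WT-Low, 4 Atg7KO-Low, 3 WT-High and 3 Atg7KO-High arrays, and the ages of the mice were not given. The cDNA hybridised to each array was amplified from 1 ng of RNA. The study's design asks how loss of Atg7 alters the stem cells and the progenitors.

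Values are log2 intensities, so a difference of 1 is a factor of 2 in linear intensity. Arrays are named by group and title number, and the values of a group are given in the order Atg7KO-Low-353, Atg7KO-Low-356, Atg7KO-Low-386 and Atg7KO-Low-387, then WT-Low-341, WT-Low-407, WT-Low-409 and WT-Low-411, then Atg7KO-High-348, Atg7KO-High-356 and Atg7KO-High-386, then WT-High-388, WT-High-411 and WT-High-412. The 14 array medians lay between 4.30 and 4.50, and precision is limited by how few arrays each group has. The standard deviation of all values on an array was 1.93, 1.90 and 1.98 on the Atg7KO-High arrays and 1.99, 2.06 and 2.05 on the WT-High arrays, so the Atg7KO-High values were spread over a narrower range. The gates were sorted on EGFP, which was under the control of Lgr5. Lgr5 itself was 9.30, 8.69 and 9.07 in WT-High and 6.07, 6.00, 5.29 and 4.65 in WT-Low. Atg7 was 6.37, 6.13 and 5.91 in Atg7KO-High and 6.77, 6.76 and 6.83 in WT-High, a difference of -0.65 (SE 0.22, adjusted p = 0.208), and 6.06, 5.78, 5.65 and 6.05 in Atg7KO-Low and 6.92, 6.77, 7.49 and 6.46 in WT-Low, a difference of -1.02 (SE 0.19, adjusted p = 0.166). The genotype difference of Atg7 did not pass the test in either gate, and whether its probe set lies in the floxed part of the gene was not stated. Where markers of secretory cells move with a result, fewer cells of a type and less RNA per cell cannot be told apart in these sorted bulk samples.

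The genes were strongly expressed. By mean level over the 14 arrays, 36 of the 44 lay in the top quintile of all genes tested, 5 in the next quintile and 3 in the middle quintile. The main pattern was a drop from the low to the high gate in Atg7KO mice. There, 25 of the 44 genes fell and 0 rose at an adjusted p under 0.05 (limma's moderated test, with Benjamini-Hochberg adjustment over all 15873 genes), against a background of 6.44% of all genes called lower and 4.48% called higher. Their median log2 difference, high minus low, was -0.67, and 42 of the 44 differences were below 0, as were 47.9% of those of all genes. Over all genes tested the median was 0.02, and over the top quintile of genes by level it was -0.19. In that quintile, 458 of 3175 genes were called lower and 2145 were below 0. Of the 36 of the 44 genes that lay in it, 20 were called lower and 34 were below 0. The Atg7KO-High arrays lay wholly below the Atg7KO-Low arrays for 29 of the 44, against 11.8% of all genes.

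That count depended on how the spread of the arrays and the secretory markers were treated. With each array's standard deviation as a covariate, 4 of the 44 were called lower (Sec24d, Copb1, Copb2 and Sec62), and with the arrays quantile-normalised again 14 were. With the mean level of 19 goblet and Paneth markers as a covariate, none was called and 8 were lower at an unadjusted p under 0.05; across all genes that model called 7 lower. Leaving out Atg7KO-High-356 or Atg7KO-High-348 left 10 called, and leaving out Atg7KO-Low-386 left 14.

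**Figure D1:**
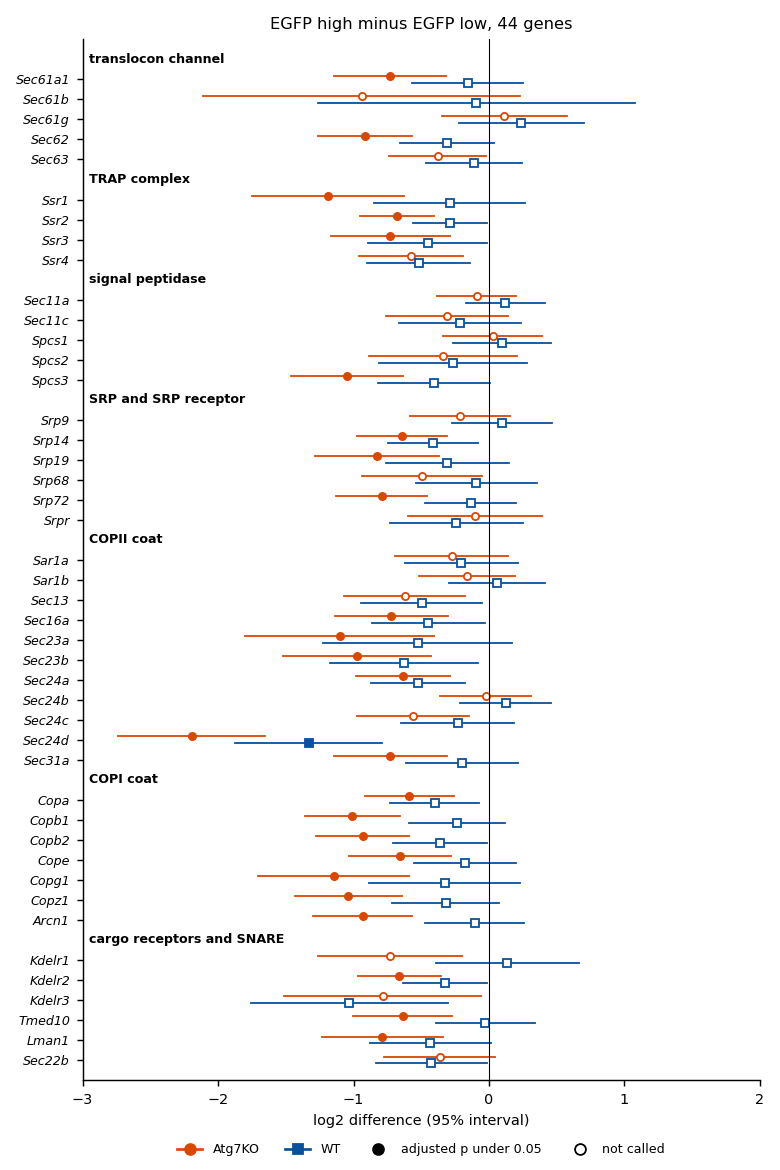
High minus low difference of each measured gene in WT and in Atg7KO mice, in log2 units, grouped by role; points are limma estimates, filled where called, and bars are 95% intervals. In Atg7KO, 42 of the 44 estimates lie below 0, and Sec24d lies furthest left in both genotypes.

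All 7 measured subunits of COPI, the coat of vesicles that return from the Golgi to the ER, fell from the low to the high gate in Atg7KO mice, with a median of -0.93. Copb1, which encodes the β subunit, was 9.18, 9.01, 9.05 and 9.01 in Atg7KO-Low and 7.85, 7.80 and 8.51 in Atg7KO-High. Every Atg7KO-High array was below every Atg7KO-Low array, and Copb1 fell by 1.01 (SE 0.16, adjusted p = 0.00228), a 2.01-fold lower level. Copb2, the β′ subunit that reads retrieval signals on cargo, was 9.09, 8.82, 9.08 and 9.26 against 8.28, 7.90 and 8.22 and differed by -0.93 (SE 0.16, adjusted p = 0.00298). The 2 groups of arrays did not overlap for Copb2 either. Copz1, the small ζ subunit, was 9.07, 9.01, 9.06 and 9.05 in Atg7KO-Low and 7.74, 7.76 and 8.53 in Atg7KO-High, a difference of -1.04 (SE 0.18, adjusted p = 0.00341). Arcn1, the δ subunit, was 9.31, 9.55, 9.67 and 9.74 against 8.46, 8.63 and 8.82, a difference of -0.93 (SE 0.17, adjusted p = 0.00391). In both genes the highest array of that group was Atg7KO-High-386, and it still lay below all 4 Atg7KO-Low arrays. The other 3 subunits, Copg1, Cope and Copa, differed by -1.15, -0.65 and -0.59, with adjusted p values of 0.0130, 0.0285 and 0.0253.

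Of the 11 COPII genes, whose products form the coat of vesicles that leave the ER, 6 fell, and Sec24d had the steepest drop of the 44 genes. Sec24d, a cargo-binding subunit of the inner coat, was 6.84, 6.53, 7.50 and 6.89 in Atg7KO-Low and 5.05, 4.19 and 4.99 in Atg7KO-High. The groups were separated by more than their spread, and the gene fell by 2.19 (SE 0.25, adjusted p = 2.98e-04), to a 4.58-fold lower level. The medians of all values on those 3 Atg7KO-High arrays were 4.48, 4.49 and 4.41. Sec24d thus lay near the middle of all probe sets there, and below it on Atg7KO-High-356, so the size of the fold is uncertain. The other 5 that fell were Sec23a, Sec23b, Sec24a, Sec31a of the outer coat and Sec16a, which marks the sites where the coat assembles, with differences of -1.10, -0.97, -0.63, -0.73 and -0.72. The rest did not pass. Sec13, the partner of Sec31a, differed by -0.62 (SE 0.21, adjusted p = 0.0701), Sec24c by -0.56 (SE 0.19, adjusted p = 0.0778), and the GTPases Sar1a and Sar1b, which start coat assembly, by -0.27 and -0.16.

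Of the 5 channel genes, Sec61a1 and Sec62 fell. Sec62, which helps short and late-targeted chains into the channel, was 7.28, 7.55, 7.58 and 7.50 in Atg7KO-Low and 6.34, 6.40 and 6.93 in Atg7KO-High, without overlap, a difference of -0.92 (SE 0.16, adjusted p = 0.00339). Sec61a1, the pore itself, differed by -0.73 (SE 0.19, adjusted p = 0.0261). The small subunits Sec61b and Sec61g differed by -0.94 (SE 0.55) and 0.11 (SE 0.22) and did not pass. Sec61b varied widely within groups, from 9.80, 8.89, 9.50 and 8.39 in Atg7KO-Low to 7.93, 7.40 and 9.28 in Atg7KO-High.

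TRAP, a complex beside the channel that aids entry of some chains, had 3 of its 4 genes lower in the same comparison. Ssr2, its β subunit, was 11.01, 11.04, 11.12 and 10.91 in Atg7KO-Low and 10.26, 10.29 and 10.47 in Atg7KO-High, a difference of -0.68 (SE 0.13, adjusted p = 0.00444). Its arrays did not overlap between gates. Ssr1 and Ssr3 fell by 1.19 and 0.73, while Ssr4 differed by -0.58 (SE 0.18, adjusted p = 0.0529) and missed the threshold. Among the 6 measured genes of the signal recognition particle and its receptor, Srp72, Srp19 and Srp14 fell by 0.79, 0.83 and 0.64. Srp68, Srp9 and the receptor gene Srpr differed by -0.49, -0.21 and -0.10 without passing.

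The signal peptidase was the role with the fewest calls, 1 of 5. Spcs3, an accessory subunit, was 9.69, 9.21, 9.01 and 9.30 in Atg7KO-Low and 8.08, 8.35 and 8.33 in Atg7KO-High, a difference of -1.05 (SE 0.19, adjusted p = 0.00413). The catalytic subunits Sec11a and Sec11c differed by -0.09 and -0.31, with 95% intervals of -0.38 to 0.20 and -0.76 to 0.14, and Spcs1 and Spcs2 by 0.03 and -0.34. Within 1 enzyme, then, Spcs3 passed and the other 4 did not, although that contrast between subunits was not itself tested. Of the 6 cargo receptor and SNARE genes, 3 fell: Lman1, a lectin that carries glycoproteins out of the ER, by 0.79, Kdelr2, a receptor that returns ER residents, by 0.66, and Tmed10, a p24 cargo receptor, by 0.64. Sec22b, a SNARE that fuses these vesicles, differed by -0.36 (SE 0.19, adjusted p = 0.240).

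**Figure D2:**
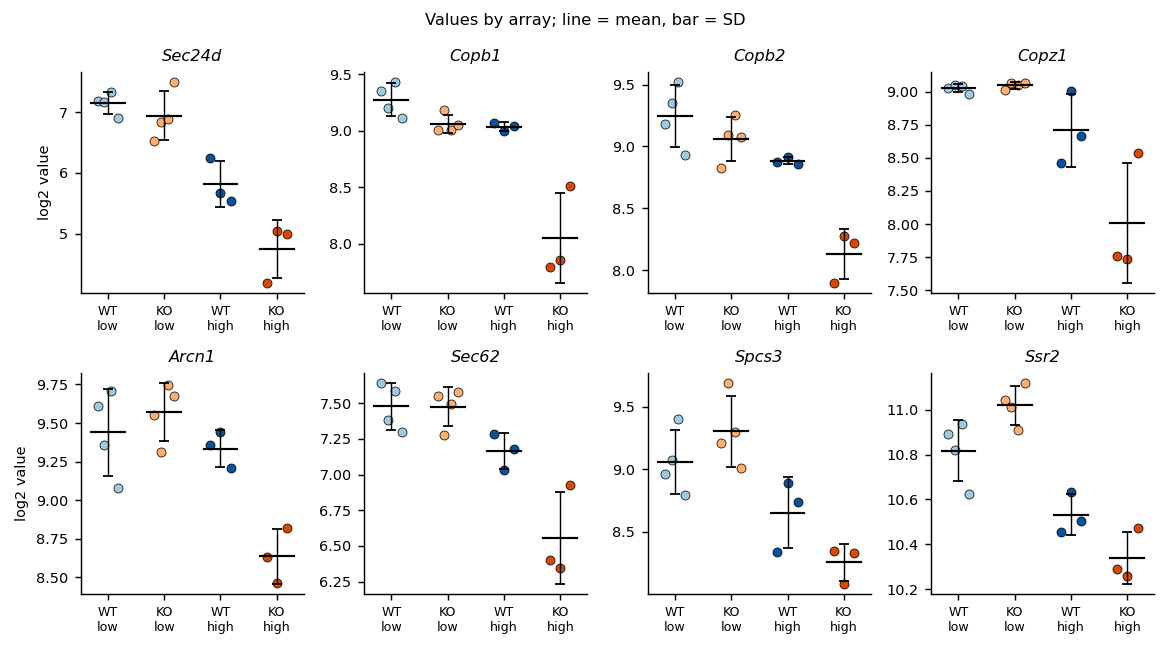
Log2 intensity (y axis) of 8 genes with calls between the gates of Atg7KO, in the 4 groups (x axis); each point is 1 array, the long line is the group mean and the bar its SD. The 3 Atg7KO-High points of Sec24d and Copb1 lie below all points of the other groups.

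In WT mice the same gate comparison gave 1 call among the 44, a lower one, against 1.22% of all genes called lower and 1.22% called higher. Sec24d was 7.19, 7.17, 7.32 and 6.90 in WT-Low and 6.24, 5.67 and 5.54 in WT-High and fell by 1.33 (SE 0.25, adjusted p = 0.0141), to a 2.52-fold lower level. The arrays of the 2 gates did not overlap. Without WT-High-411 or WT-High-412, its adjusted p was 0.0750 or 0.0803 and the call was lost. The 44 genes had a median difference of -0.28, 37 were below 0 (as were 45.3% of all genes), and 14 were lower at an unadjusted p under 0.05, against 5.91% of all genes. The top level quintile of all genes had a median of 0.11.

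After Sec24d, the smallest p values in WT belonged to Sec24a, Kdelr3 and Ssr4, none of which passed. Sec24a, a second cargo-binding COPII subunit, was 8.20, 8.22, 8.06 and 7.64 in WT-Low and 7.51, 7.36 and 7.65 in WT-High, a difference of -0.52 (SE 0.16, adjusted p = 0.117). Kdelr3, a KDEL receptor, was 6.44, 5.93, 6.06 and 5.89 against 5.16, 5.17 and 4.83, a difference of -1.03 (SE 0.34, adjusted p = 0.141). Its arrays did not overlap between the gates in WT, and in Atg7KO it differed by -0.78 (SE 0.34, adjusted p = 0.152). Ssr4, the δ subunit of TRAP, was 9.65, 9.26, 9.31 and 9.60 in WT-Low and 9.00, 8.96 and 8.85 in WT-High and differed by -0.52 (SE 0.18, adjusted p = 0.163). The 7 COPI genes had a median of -0.32 in WT and none was called; Copb1, Copz1 and Arcn1 differed by -0.24, -0.32 and -0.11.

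Promoter sequence is shown for the genes that share a letter string within their start windows, because Sec24d, Copb1 and Copb2 are among them. RefSeq promoter windows (GRCm38.p6, from 250 bases before to 50 after the start) were matched for 35 of the 44 genes, and the string TGACGTGG, searched on both strands, stood in those of 5 (14.3%), against 0.714% of the 27025 genes with a window. It is a form of the unfolded protein response element, a string known to be bound by factors of the ER stress response. In the lines that follow, which show 4 of the 5, the strand of the gene is written 5′ to 3′ and the match, or its reverse complement CCACGTCA, is in capitals.

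Sec24d: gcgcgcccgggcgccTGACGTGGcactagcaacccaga
Copb1: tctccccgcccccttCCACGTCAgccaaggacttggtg
Copb2: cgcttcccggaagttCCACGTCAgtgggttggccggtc
Kdelr3: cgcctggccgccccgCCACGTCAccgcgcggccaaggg

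These stretches lie at chr3:123267455-123267492 (plus strand), chr7:114254686-114254723 (minus), chr9:98563709-98563746 (plus) and chr15:79516363-79516400 (plus). Between the gates of Atg7KO mice these 4 genes differed by -2.19, -1.01, -0.93 and -0.78 in that order, and Kdelr3 was the 1 of them that was not called. In WT they differed by -1.33, -0.24, -0.36 and -1.03. Among neighbouring lists described below, TGACGTGG stood in 9.38% of 32 further COPII and ER exit genes and 10% of 20 further COPI and retrieval genes. It stood in 0 of 29 unfolded protein response genes, 0 of 10 oligosaccharyltransferase genes and 0 of 7 other translocation genes. The shorter string CCACG, which overlaps the reverse complement of TGACGTGG, stood in 22 of the 35 windows (62.9%) and in 35.5% of all. In those neighbouring lists its share was higher, from 70% to 85.7%. TGACGTCA, a cyclic AMP response element, stood in 1 of the 35 (Cope, 2.86%, against 2.03% of all), and TGACGTGA in 0 (0.507% of all). The ER stress elements ERSE and ERSE-II, also searched on both strands, stood in none of the 35, against 0.137% and 0.0444% of all genes. In the neighbouring lists, ERSE stood in 7 of 29 unfolded protein response genes and 2 of 7 other translocation genes. It stood in 0 of 10 oligosaccharyltransferase genes, 0 of 32 further COPII and ER exit genes and 0 of 20 further COPI and retrieval genes. A match is a description of the letters in these windows only.

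Between genotypes in the high gate, Copb1, Copb2, Sec24d and Arcn1 had the smallest p values of the 44 and all had lower means in Atg7KO, but none passed the adjusted test. None of the 44 was called in either direction, against 0.0126% of all genes, that is 2 genes in the whole comparison. At an unadjusted p under 0.05, 16 were lower in Atg7KO and 0 were higher, against 9.88% of all genes lower and 5.99% higher. Of the 44 genes, 36 lay in the top level quintile, and 13 of these were lower at that threshold. Over that whole quintile, 746 of 3175 genes were. The median difference of the 44, Atg7KO minus WT, was -0.36, against -0.24 for the top level quintile of all genes. Of the 44 differences, 38 were below 0, against 53.8% over all genes and 2436 of the 3175 in that quintile. The Atg7KO-High arrays lay wholly below the WT-High arrays for 21 of the 44, against 15.2% of all genes. This comparison and the gate comparison in Atg7KO share the 3 Atg7KO-High arrays.

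COPI had the lowest median of the 7 roles, -0.70, with 6 of its 7 genes lower at an unadjusted p under 0.05. Copb1 was 7.85, 7.80 and 8.51 in Atg7KO-High and 9.07, 9.00 and 9.05 in WT-High, a difference of -0.98 (SE 0.18, adjusted p = 0.0993) with a 95% interval of -1.36 to -0.61. Copb2 was 8.28, 7.90 and 8.22 against 8.88, 8.91 and 8.86, a difference of -0.75 (SE 0.17, adjusted p = 0.131). Neither gene's arrays overlapped between genotypes. Arcn1 was 8.46, 8.63 and 8.82 in Atg7KO-High and 9.36, 9.44 and 9.21 in WT-High and differed by -0.70 (SE 0.18, adjusted p = 0.143). Sec24d was 5.05, 4.19 and 4.99 against 6.24, 5.67 and 5.54, a difference of -1.07 (SE 0.27, adjusted p = 0.133), which was the widest among the 44, and its arrays did not overlap either. Of the other roles, the signal peptidase had a median of -0.09 and 0 of 5 genes at that unadjusted threshold, and TRAP a median of -0.17 with 1 of 4 (Ssr1, -0.76). Lman1, Srp72, Sec62 and Copz1 differed by -0.72, -0.63, -0.61 and -0.70, with adjusted p values of 0.181, 0.153, 0.165 and 0.161. With array weights, 9 of the 44 were called lower, and with each array's standard deviation as a covariate the 16 became 4 and the median -0.14. Without Atg7KO-High-386, 2 were called. Leaving out WT-High-412, or else Atg7KO-High-356, turned the 16 into 10.

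**Figure D3:**
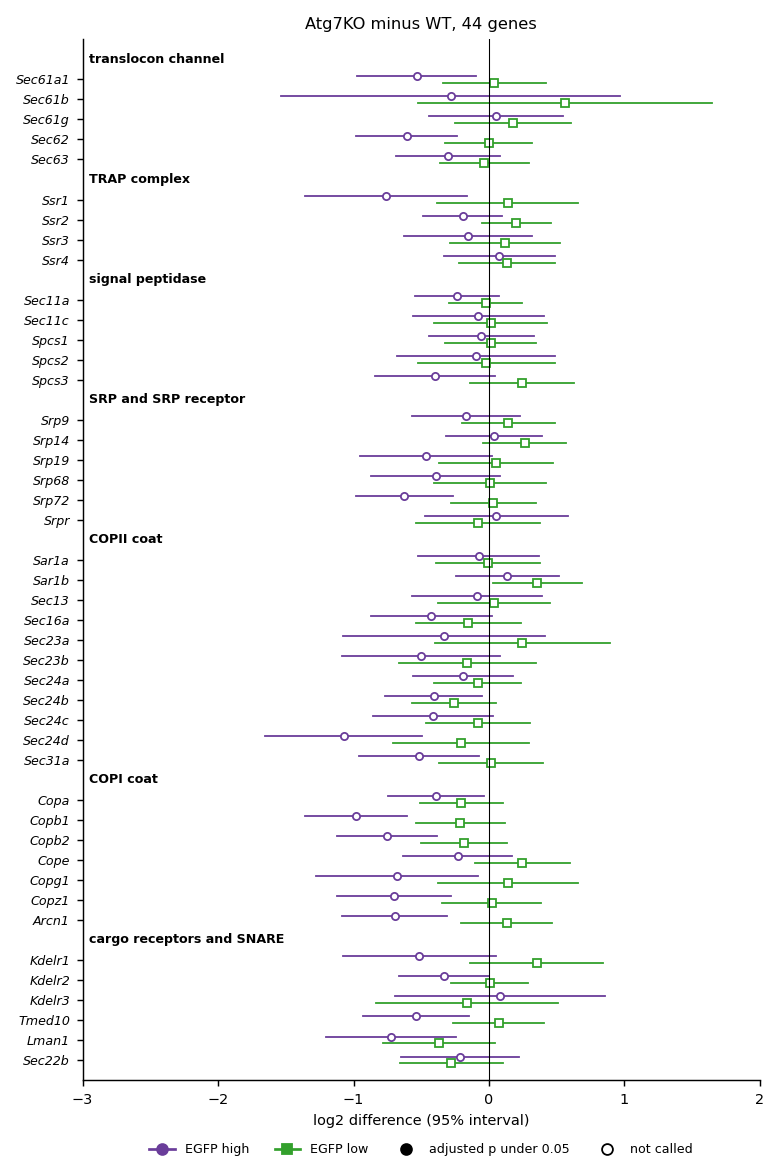
Atg7KO minus WT difference of each measured gene in the high and in the low gate, in log2 units, grouped by role; points are limma estimates, filled where called, and bars are 95% intervals. In the high gate 38 of the 44 estimates lie below 0, and in the low gate 18 do.

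In the low gate no gene of the 44 was called, and the median difference between genotypes was 0.01, or -0.0629 with the arrays quantile-normalised again and -0.0509 with cyclic loess, so it had no settled direction. The background was 0.0063%, since limma called 1 gene in that comparison, and 18 of the 44 differences were below 0, against 49.7% over all genes. At an unadjusted p under 0.05 there was 1 gene of the 44, Sar1b, higher in Atg7KO, against 7.26% of all genes in either direction. Sar1b, the Sar1 form that large lipoprotein cargo needs, was 9.20, 8.72, 8.79 and 8.66 in Atg7KO-Low and 8.72, 8.57, 8.28 and 8.38 in WT-Low, a difference of 0.36 (SE 0.15, adjusted p = 0.665). Lman1 was 8.82, 8.22, 8.66 and 8.96 against 9.08, 9.18, 9.26 and 8.61, a difference of -0.37 (SE 0.19, adjusted p = 0.724). The arrays of the 2 genotypes overlapped for both. Srp14, which with Srp9 forms the part of the particle that slows translation, was 8.39, 8.54, 7.88 and 8.44 in Atg7KO-Low and 8.16, 7.97, 8.04 and 8.01 in WT-Low and differed by 0.26 (SE 0.14, adjusted p = 0.734). Sec24b was 7.28, 7.78, 7.68 and 7.31 against 7.61, 7.82, 7.97 and 7.69, a difference of -0.26 (SE 0.14, adjusted p = 0.743). COPI, by contrast with its values in the high gate, had a median of 0.02, with Copb1 at -0.21 (95% interval -0.54 to 0.12) and Arcn1 at 0.13 (95% interval -0.21 to 0.47).

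Whether the genotype difference itself differed between gates was tested as an interaction, the high-gate difference minus the low-gate difference. None of the 44 passed (background 0.0063% of all genes), and 13 were below 0 at an unadjusted p under 0.05, against 8.49% of all genes. In the top level quintile, 645 of 3175 genes were below 0 at that threshold. Of the 44 genes, 36 lay in that quintile, and 10 of these were. The median of the 44, -0.34, was close to the -0.30 of the top level quintile of all genes. Arcn1 had the smallest p of the 44, with -0.83 (SE 0.24, adjusted p = 0.226), followed by Copb1 with -0.77 (SE 0.23, adjusted p = 0.238). Srp72, a scaffold protein of the signal recognition particle, had -0.66 (SE 0.22, adjusted p = 0.260) and was 9.31, 9.18, 9.18 and 9.11 in Atg7KO-Low, 9.22, 9.35, 9.24 and 8.84 in WT-Low, 8.43, 8.11 and 8.67 in Atg7KO-High and 8.96, 9.05 and 9.08 in WT-High. Its Atg7KO-High arrays lay below those of the other 3 groups. Copz1 had -0.72 (SE 0.26, adjusted p = 0.277), with 9.03, 9.05, 9.04 and 8.99 in WT-Low and 8.46, 9.00 and 8.66 in WT-High. COPI had the lowest median of the 7 roles here too, -0.72, and the signal peptidase the highest, -0.09. With each array's standard deviation as a covariate none of the 44 was below 0 at an unadjusted p under 0.05 and the median was -0.07. Leaving out WT-High-411, or else Atg7KO-High-356, turned the 13 into 6, and leaving out Atg7KO-High-348 turned them into 7.

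Related genes within a role did not all have the same profile. Of the 4 Sec24 genes, which recognise different sets of cargo, Sec24d and Sec24a fell between the gates of Atg7KO mice, Sec24c differed by -0.56 (95% interval -0.98 to -0.15), and Sec24b by -0.02 (95% interval -0.36 to 0.31). Sec24b was 7.77 ± 0.16 in WT-Low (mean ± SD, n = 4), 7.51 ± 0.25 in Atg7KO-Low, 7.89 ± 0.07 in WT-High and 7.49 ± 0.15 in Atg7KO-High (n = 3). The interval of Sec24d, -2.74 to -1.65, did not reach that of any other Sec24 gene. Sec23a and Sec23b, the GTPase-activating partners of Sec24, fell together, by 1.10 and 0.97, with intervals of -1.80 to -0.41 and -1.52 to -0.43. Sar1a and Sar1b had intervals of -0.69 to 0.14 and -0.52 to 0.19. The 3 KDEL receptors had overlapping intervals in Atg7KO, -1.26 to -0.20 for Kdelr1, -0.97 to -0.35 for Kdelr2 and -1.51 to -0.06 for Kdelr3, and Kdelr2 passed while Kdelr1 and Kdelr3 had adjusted p values of 0.0730 and 0.152. In WT, Kdelr1 differed by 0.14 and Kdelr3 by -1.03. Kdelr1 was 8.23 on WT-Low-411 and between 9.33 and 9.42 on the other WT-Low arrays, so the sign of its WT difference is uncertain. No difference between related genes was itself tested.

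Read over the whole set, the mean level of the 44 genes was 7.85, 7.79 and 8.18 in Atg7KO-High, 8.20, 8.39 and 8.31 in WT-High, 8.69, 8.48, 8.70 and 8.54 in Atg7KO-Low and 8.63, 8.63, 8.69 and 8.34 in WT-Low. Every Atg7KO-High array was below every array of the other 3 groups, by the least for Atg7KO-High-386, and WT-High and WT-Low overlapped through WT-Low-411. The mean of the 10 goblet markers, such as the mucin Muc2 and the factor Atoh1, was 8.51, 7.73 and 9.37 in Atg7KO-High and 9.62, 9.20 and 9.30 in WT-High, against 10.89, 10.26, 10.82 and 10.73 in Atg7KO-Low and 10.92, 10.61, 11.15 and 10.76 in WT-Low. All 10 were called lower in the high than in the low gate in Atg7KO (median -2.08) and 6 of 10 in WT (median -1.42). At an unadjusted p under 0.05, all 10 were lower in WT too. Atoh1 fell by 2.15 in Atg7KO and 1.39 in WT.

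Of the 9 Paneth markers, 5 were called lower in the high gate in Atg7KO and 0 in WT, of the 8 enterocyte markers 5 and 0, and of the 9 enteroendocrine markers 6 and 4. In WT, 8 of the 9 Paneth and 7 of the 8 enterocyte differences were still below 0, with medians of -0.62 and -0.40. Between genotypes in the high gate none of the goblet, Paneth, enterocyte or enteroendocrine markers was called. Their medians were -0.93, -0.64, -0.52 and 0.00 in that order. Paneth markers averaged 9.36, 8.14 and 8.85 in Atg7KO-High, 9.66, 10.52 and 9.86 in WT-High, 10.36, 9.64, 9.67 and 10.13 in Atg7KO-Low and 9.85, 10.48, 10.80 and 11.23 in WT-Low. The 8 stem cell markers were higher in the high gate, with medians of 1.34 in Atg7KO (7 called) and 1.48 in WT (8 called). Tuft and leukocyte markers averaged between 4.04 and 4.99 on all arrays, and Dclk1, Ptprc and Cd79a did not pass the filter on dim probe sets. The part of these markers in the result was not tested. The mean of the 19 goblet and Paneth markers was itself 10.33 in Atg7KO-Low and 8.65 in Atg7KO-High. The covariate fit given above therefore cannot separate marker level from gate.

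**Figure D4:**
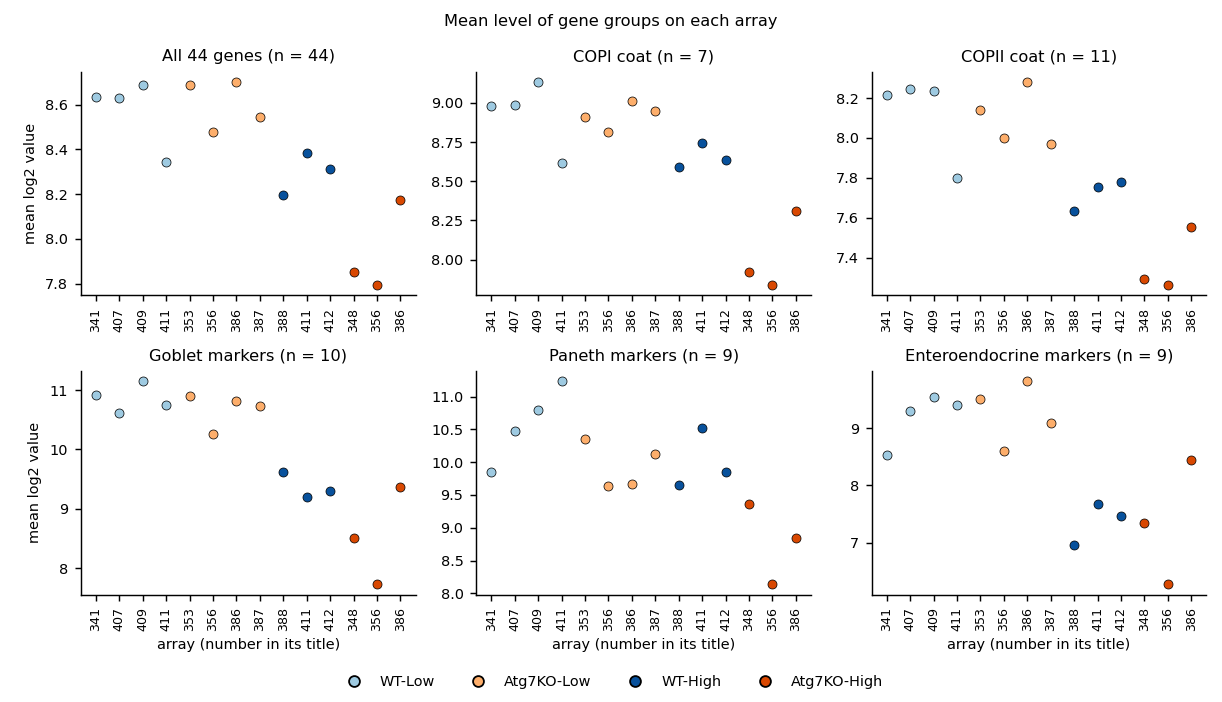
Mean log2 level on each array (x axis, by number and coloured by group) of the 44 genes, the COPI and COPII coats, and the goblet, Paneth and enteroendocrine markers; each point is 1 array and each panel has its own y axis. The Atg7KO-High arrays are lowest for the 44 genes, and in the goblet markers they range from 7.73 to 9.37.

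The rest of the pathway was read from lists of neighbouring genes. In Atg7KO, 16 of 34 regulators and chaperones of the unfolded protein response, the pathway that adjusts ER capacity to load, fell from the low to the high gate and 0 rose, with a median of -0.67. The 3 with the smallest p were Manf (-1.19), a secreted ER chaperone cofactor, Ern2 (-1.91), the ER stress sensor of mucus-secreting epithelium, and Dnajb11 (-0.98), a co-chaperone. Xbp1, the transcription factor that expands the secretory pathway, was 8.50, 8.30, 8.48 and 8.34 in Atg7KO-Low and 7.55, 7.17 and 7.97 in Atg7KO-High and fell by 0.84 (SE 0.24, adjusted p = 0.0369). In WT it differed by -0.55 (SE 0.24, adjusted p = 0.295). Hspa5, the main ER chaperone (BiP), which also closes the channel and pulls chains through it, differed by -0.57 (SE 0.19, adjusted p = 0.0606) in Atg7KO and -0.23 (SE 0.19, adjusted p = 0.619) in WT. Creb3l1, an ER-anchored transcription factor, fell by 1.41 in Atg7KO and 1.59 in WT, with adjusted p values of 0.00918 and 0.0132.

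Of 34 further COPII and ER exit genes, 9 fell in Atg7KO and 0 rose, led by Surf4 (-1.24), a cargo receptor, Tmed4 (-0.94) and the tether Uso1 (-1.13). Of 20 further COPI and retrieval genes, Gbf1 (-0.72), which activates the coat's GTPase, and Nbas (-0.76) fell, and the SNARE Use1 (0.62) rose. The oligosaccharyltransferase, which adds glycans to chains at the channel, had 4 of 12 genes lower, among them Dad1 (-0.88), Ostc (-0.94) and Magt1 (-0.74). The GET and EMC routes, which insert membrane proteins independently of the Sec61 pore or beside it, had 1 of 18 lower (Emc2, -0.79). Of 11 other translocation genes, 3 fell and 2 rose, with a median of -0.57. None of 8 ER-phagy receptors, which mark ER for autophagy, was called in this comparison, and 2 were lower at an unadjusted p under 0.05. Of all 15873 genes, 6.44% were called lower, and 2285 were lower at that unadjusted threshold. The median of the 44 genes, -0.67, equalled that of the unfolded protein response list to 2 decimals and was lower than those of GET and EMC (-0.26) and ER-phagy (-0.03), with no test of the difference. The lists were not matched for level, and over all genes the median was 0.10 in the lowest level quintile and -0.19 in the top one.

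In WT, the gate comparison called 6 of 34 unfolded protein response genes lower, with Edem1 (-0.93) and Dnajb9 (-0.73) beside Creb3l1, and Dnajc3 (-0.83) and Mia3 (-0.93), a receptor that loads large cargo into COPII vesicles. Of all genes, 1.22% were called lower there. Between the genotypes, none of these 7 neighbouring lists had a called gene in either gate. In the high gate their medians ran from -0.44 for the other translocation genes to -0.20 for the other COPII and ER exit genes, beside -0.36 for the 44 genes.

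**Figure D5:**
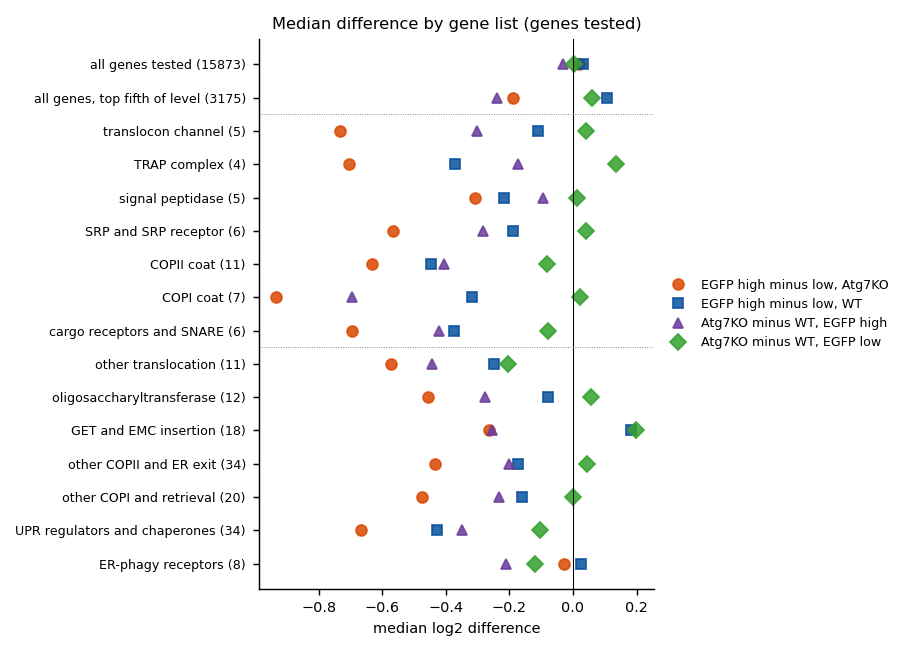
Median log2 difference (x axis) of all genes, of the 7 roles and of the 7 neighbouring lists in 4 comparisons, with the number of genes tested in brackets. COPI has the lowest point of the plot, -0.93 in the gate comparison of Atg7KO, where ER-phagy receptors are at -0.03.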

How the data were processed

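The deposited values are log2 intensities, 1 per probe set and array. Per the submitters' processing notes they were made with Affymetrix Expression Console and RMA, and the values bear this out only in their scale; the genome build is not given in the sources used here. RMA normalises arrays to a like distribution, yet the deposited arrays differ somewhat in spread. Gene names came from the platform annotation, which names 24675 of 25429 probe sets. Genes were tested where the value reached the array's 40th percentile on at least 3 arrays. Means of 4 groups were fitted over 14 arrays with limma 3.58.1 (R 4.3.3; 10 residual and 4.54 prior degrees of freedom) and 5 contrasts tested, two-sided, with Benjamini-Hochberg adjustment over 15873 genes and a threshold of 0.05. The members and lists were chosen with earlier results of these data known. Genes given array by array were those called in a comparison, up to 8 per direction by p, or the 4 smallest p where fewer were called, with related genes side by side. Other lists give up to 3 called genes per comparison or the 2 smallest p, with Atg7, Lgr5, Xbp1, Hspa5, Atoh1 and Creb3l1 in any case. The fit was tested on simulated data. Promoter windows are from RefSeq, GRCm38.p6; 1 of the matched stretches is not reported here. Alternatives were other priors, normalisations, filters, covariates, array weights, blocks by title number and leaving out each array.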

Additional observations from a re-analysis of the deposited data

Results flagged for a closer look

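In 4 of 104 sets of 4 arrays (each of the 44 genes, its role means and the set mean in the 2 low groups), 1 array stood apart from the rest by Dixon's criterion, which chance alone meets in about 1 of 20 such sets. Kdelr1 was 8.23 on WT-Low-411 and 9.33 on the next lowest WT-Low array. The mean of the 11 COPII genes was also lowest on that array, at 7.80 against 8.22. Copa was 8.48 on Atg7KO-Low-387 against 8.73 on the next, and Sec22b was 7.20 on Atg7KO-Low-356 against 7.98. WT-Low-411 also had the narrowest spread of the low-gate arrays.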

How the results depend on the processing

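None of the single-gene differences recomputed under the alternatives (those of the genes with the smallest p in each comparison) reversed its sign, but the median of the 44 genes between genotypes in the low gate turned from 0.01 to -0.0629 with quantile normalisation again, -0.0509 with cyclic loess, -0.0318 with array SD as a covariate and -0.0489 without the 2 arrays of narrowest spread or without WT-Low-411. Over the alternatives, 34 to 43 of the 44 genes were below 0 between the gates of Atg7KO and 27 to 39 in WT, 29 to 43 between genotypes in the high gate and 13 to 29 in the low gate. The further counts are of the 44 genes lower, at an unadjusted p under 0.05 unless said to be called. In the gate comparison of Atg7KO, the called count of 25 became 14 with quantile normalisation again, 4 with array SD as a covariate and 0 with the goblet and Paneth level as a covariate; the 32 lower became 20 and 8 under those covariates, and the median of -0.67 became -0.48 with quantile normalisation or cyclic loess, -0.45 with array SD and -0.40 with the markers. In WT, the 1 called became 2 with the 2 groups alone, with cyclic loess or without the 2 arrays of narrowest spread, 6 with array weights, 3 with array SD and 0 with the markers; the 14 lower became 9 with the 2 groups alone, 8 with median centring, 22 with array SD and 3 with the markers, which took the median to -0.094. Between genotypes in the high gate, 0 called became 9 with array weights, the 16 lower became 10 with cyclic loess, 4 with array SD and 2 with the markers, and the median of -0.36 became -0.17 with cyclic loess and -0.14 with array SD. In the low gate, 0 lower became 4 with quantile normalisation, 3 with cyclic loess, 1 with array weights, 1 with array SD and 2 without the 2 narrowest arrays. For the interaction, 13 lower became 3 with quantile normalisation or cyclic loess, 0 with array SD, 4 without the 2 narrowest arrays and 5 with the markers, and the median of -0.34 became -0.15, -0.10 and -0.069 with quantile normalisation, cyclic loess and array SD. The causes of these shifts were not tested. Leaving out single arrays gave 10 to 27 called between the gates of Atg7KO, 0 to 2 called and 5 to 20 lower in WT (2 called without WT-Low-411 or Atg7KO-Low-356), 0 to 2 called and 10 to 21 lower between genotypes in the high gate, 0 to 1 lower in the low gate and 6 to 16 for the interaction. In all 14 such omissions Arcn1, Copb1, Copb2, Copz1, Sec24d, Sec62, Spcs3, Srp72 and Ssr2 kept their calls between the gates of Atg7KO. In 3 cases the same title number occurs in both gates (Atg7KO-Low-356 and Atg7KO-High-356, Atg7KO-Low-386 and Atg7KO-High-386, WT-Low-411 and WT-High-411). The labels do not say what the numbers name, so the main fit did not pair the arrays. Deviations of same-numbered arrays correlated at 0.11, 0.18 and -0.04, which cannot show whether same-numbered arrays came from 1 mouse. A random replicate block kept 25 called, and a fixed replicate block over the 4 Atg7KO arrays among these called 2.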

Other observations

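Not all genes of ER entry and retrieval had lower levels in the high gate of Atg7KO mice. Sec61a2, which encodes a second form of the channel's pore subunit, was 5.92, 5.17, 5.36 and 5.00 in Atg7KO-Low and 6.72, 6.62 and 6.23 in Atg7KO-High. It rose by 1.16 (SE 0.21, adjusted p = 0.00422), while Sec61a1 fell by 0.73. In WT, Sec61a2 was 5.79, 6.08, 6.06 and 6.40 in WT-Low and 6.11, 6.04 and 6.35 in WT-High, a difference of 0.08 (SE 0.21, adjusted p = 0.903). Atg7KO-Low was thus below WT-Low for Sec61a2, a difference of -0.72 (SE 0.20, adjusted p = 0.495) that did not pass. Use1, a SNARE of the retrieval route, was 9.63, 9.66, 9.43 and 9.33 in Atg7KO-Low and 10.45, 10.13 and 9.83 in Atg7KO-High and rose by 0.62 (adjusted p = 0.0190), and in WT it differed by 0.37 (SE 0.15, adjusted p = 0.263). Srp54c, a copy of the gene for the signal-binding subunit of the particle, fell by 1.16 (SE 0.22, adjusted p = 0.00523). Its near-identical copies could share its signal, so this value is uncertain as to the gene.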
